A study of Mus musculus with 6 samples.

Results

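The zinc-dependent histone deacetylase genes of the mouse, apart from Hdac10, were followed through treatment with the cytokine TGF-β and its removal. The members were Hdac1 to Hdac9 and Hdac11, found by the annotated gene symbol of each probe set, and all 10 were measured among 18193 genes. They had 17 probe sets, and each gene is represented by the one with the highest mean over all arrays. RNA came from NMuMG, a line of mouse mammary epithelial cells, and was hybridised to 6 Affymetrix mouse arrays, 2 for each of 3 groups. Control cells received vehicle. The TGF-β group received 4 ng/ml of TGF-β for 11 days, and the withdrawal group had that treatment followed by 13 days without the cytokine. The withdrawn cells were therefore also kept longer in culture, and time and withdrawal cannot be told apart. All cells were 1 line, grown with serum and insulin. Nothing in the labels names separate cultures behind arrays of 1 group, so the p-values rest on a spread between samples that may be only technical.

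Histone deacetylases remove acetyl groups from lysines of histones and other proteins, which compacts chromatin and is mostly linked to lower transcription. Class I enzymes are nuclear and work inside corepressor complexes (SIN3, NuRD, CoREST, NCoR). Class IIa enzymes have little catalytic activity of their own, bind MEF2 transcription factors, and leave the nucleus when kinases phosphorylate them and 14-3-3 proteins hold them in the cytoplasm. HDAC6 is a cytoplasmic tubulin deacetylase, and HDAC11 is the sole class IV enzyme. In epithelial cells undergoing the mesenchymal transition, repressors of the Snail and Zeb families recruit class I deacetylases to the E-cadherin gene.

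Promoter sequence from RefSeq (GRCm38.p6) was matched to 8 of the members, with 12 annotated starts. Hdac1 and Hdac3 are named only. The sequences shown here are the 250 bases before the start of the genes with the largest rises on withdrawal, Hdac5 and Hdac9 with both of its starts, and of Hdac2, which fell. Capitals mark matches to the outer bases of the MEF2 site, CTA and then TAG with any 4 bases between them. The MEF2 consensus has A or T at those 4 inner places.
Hdac5, chr11:102230173-102230422, minus strand: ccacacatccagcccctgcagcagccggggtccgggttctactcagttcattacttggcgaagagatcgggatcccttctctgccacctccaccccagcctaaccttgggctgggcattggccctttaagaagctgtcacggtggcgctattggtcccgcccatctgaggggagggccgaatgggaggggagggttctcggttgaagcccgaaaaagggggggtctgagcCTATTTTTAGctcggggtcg
Hdac9, downstream start, chr12:34528890-34529139, minus strand: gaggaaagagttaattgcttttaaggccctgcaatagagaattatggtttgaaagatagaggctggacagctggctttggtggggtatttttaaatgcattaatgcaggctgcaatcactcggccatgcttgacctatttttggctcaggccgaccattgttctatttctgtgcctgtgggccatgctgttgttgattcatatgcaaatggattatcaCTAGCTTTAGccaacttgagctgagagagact
Hdac9, upstream start, chr12:34917096-34917345, minus strand: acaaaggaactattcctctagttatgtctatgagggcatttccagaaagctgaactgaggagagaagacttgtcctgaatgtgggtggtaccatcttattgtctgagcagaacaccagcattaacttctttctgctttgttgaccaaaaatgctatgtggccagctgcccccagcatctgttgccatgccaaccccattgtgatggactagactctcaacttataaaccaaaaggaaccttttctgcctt
Hdac2, chr10:36974294-36974543, plus strand: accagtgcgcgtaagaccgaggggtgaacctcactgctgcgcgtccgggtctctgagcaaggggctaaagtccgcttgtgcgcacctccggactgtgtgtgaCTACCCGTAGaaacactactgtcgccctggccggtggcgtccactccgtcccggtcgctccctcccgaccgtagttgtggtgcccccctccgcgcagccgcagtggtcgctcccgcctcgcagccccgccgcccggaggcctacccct
The match began 20 bases before the start of Hdac5, 32 bases before the downstream start of Hdac9 and 148 bases before that of Hdac2. These were the only matches at the 12 starts, so 3 of 12 held it, against 3.20% of all 32851 promoter windows of the same length. Only the Hdac5 match had A or T at all 4 inner bases, and 0.508% of all windows held such a match. The other motifs, searched on both strands like the first, were the E-box CAGGTG, the Smad element CAGAC, the Sp1 box GGGCGG, the NF-Y element CCAAT, the AP-1 site TGANTCA and the cAMP element TGACGTCA. They were found at 1, 7, 6, 5, 1 and 0 of the 12 starts, against 17.2%, 42.2%, 32.7%, 33.8%, 6.75% and 1.55% of all windows, and 0 matches of different motifs overlapped. The AP-1 match lay 57 bases before the downstream start of Hdac9, and the E-box 129 bases before that of Hdac6. A match is a description of these letters and shows no binding. Both Hdac9 windows had little G and C, 44.4% upstream and 43.6% downstream, against 60.8% for Hdac5, 68.8% for Hdac2 and a median of 52.4% over all windows.

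The values are log2 expression per probe set after RMA, which sets all arrays to a common distribution, and array medians lay between 5.77 and 5.79. Arrays of a group correlated at Pearson's r of at least 0.9976 across probe sets, which are not independent replicates. A description field of the labels names the 2 treated groups by opposite states, while titles and treatment entries match each other, and groups follow these. Cdh1, the E-cadherin gene, was at 11.99 and 11.89 on the control arrays, 8.37 and 8.25 on those titled TGF-β, and 11.80 and 11.79 on those titled withdrawal. Of the other 5 epithelial markers, the keratin genes Krt8 and Krt18 fell under TGF-β, by 0.73 and 0.53, and on withdrawal were still at -0.94 and -0.53 against control. Epcam and Krt8 were lower on withdrawal than under TGF-β, at -0.27 and -0.22, calls lost with poly-A scaling. The log2 of the summed level of all 6 was 15.44 and 15.44 in control, 14.70 and 14.72 under TGF-β and 14.79 and 14.79 on withdrawal. Scaling to spiked poly-A RNAs moved the median difference of all genes to -0.30 under TGF-β, 0.12 on withdrawal against TGF-β and -0.18 against control, and scaling to hybridization spikes to -0.19, -0.23 and -0.42. Genes called higher and lower went from 2726 and 3175 under TGF-β to 777 and 4888 with poly-A spikes and 1362 and 5504 with hybridization spikes. On withdrawal against TGF-β they went from 3960 and 4023 to 3423 and 1410 with poly-A spikes and 2303 and 7877 with hybridization spikes. Against control they went from 3943 and 4292 to 1917 and 3441 with poly-A spikes and 1712 and 12948 with hybridization spikes. All changes are therefore relative to the arrays' common level. Of 6 leukocyte markers, Cd53 and Cd68 were higher on withdrawal than under TGF-β, by 1.45 and 1.05, while the defining gene Ptprc lay between 3.79 and 4.05 on all arrays. The log2 of the list's summed level was 8.17 and 8.24 in control, 8.24 and 8.15 under TGF-β and 8.51 and 8.38 on withdrawal. The part of such cells in the results was not tested. Endothelial and adipocyte lists had 1 of 4 and 0 of 2 measured members called in any comparison. In bulk RNA, fewer cells of a type and less RNA per cell cannot be told apart.

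The first question was which deacetylase genes TGF-β changed. Hdac9 rose by 1.54 from a low control level and Hdac1 by 0.24, while Hdac3, Hdac5 and Hdac6 fell. That is 5 of 10 called by limma at an adjusted p under 0.05, against 32.4% of all genes. By direction it was 2 higher, against 15.0% of all genes, and 3 lower, against 17.5%. The median difference of the members was -0.11, and that of all genes -0.011. When TGF-β was withdrawn, 8 of 10 were called against the TGF-β group, where 43.9% of all genes were called. Hdac4, Hdac5, Hdac6, Hdac7, Hdac8 and Hdac9 rose (6, against 21.8% of all genes) and Hdac1 and Hdac2 fell (2, against 22.1%), with medians of 0.29 and -0.033. Set against control, the withdrawn cells differed in 8 of 10, against 45.3% of all genes. Hdac5, Hdac7, Hdac8 and Hdac9 were higher (4, against 21.7%) and Hdac1, Hdac2, Hdac3 and Hdac6 lower (4, against 23.6%), with medians of 0.070 and -0.042. The share of genes called depends on brightness. With the dimmest 40% of genes left out, which drops Hdac9 and Hdac11 of the members, 57.2% of the remaining genes were called under TGF-β. On withdrawal these shares were 69.9% against TGF-β and 71.3% against control. Part or all of the excess of called members over all genes may therefore reflect their level, which was not tested. The 3 comparisons share groups, so their counts are not independent. With poly-A scaling, 1 member was higher and 4 lower under TGF-β, 6 and 1 on withdrawal, and 3 and 2 against control, where 31.1%, 26.6% and 29.5% of all genes were called. With hybridization spikes these counts were 1 and 5, 2 and 3, and 2 and 5, where 37.7%, 56% and 80.6% of all genes were called, so the last 2 counts of calls lie below the share of all genes.

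**Figure D1:**
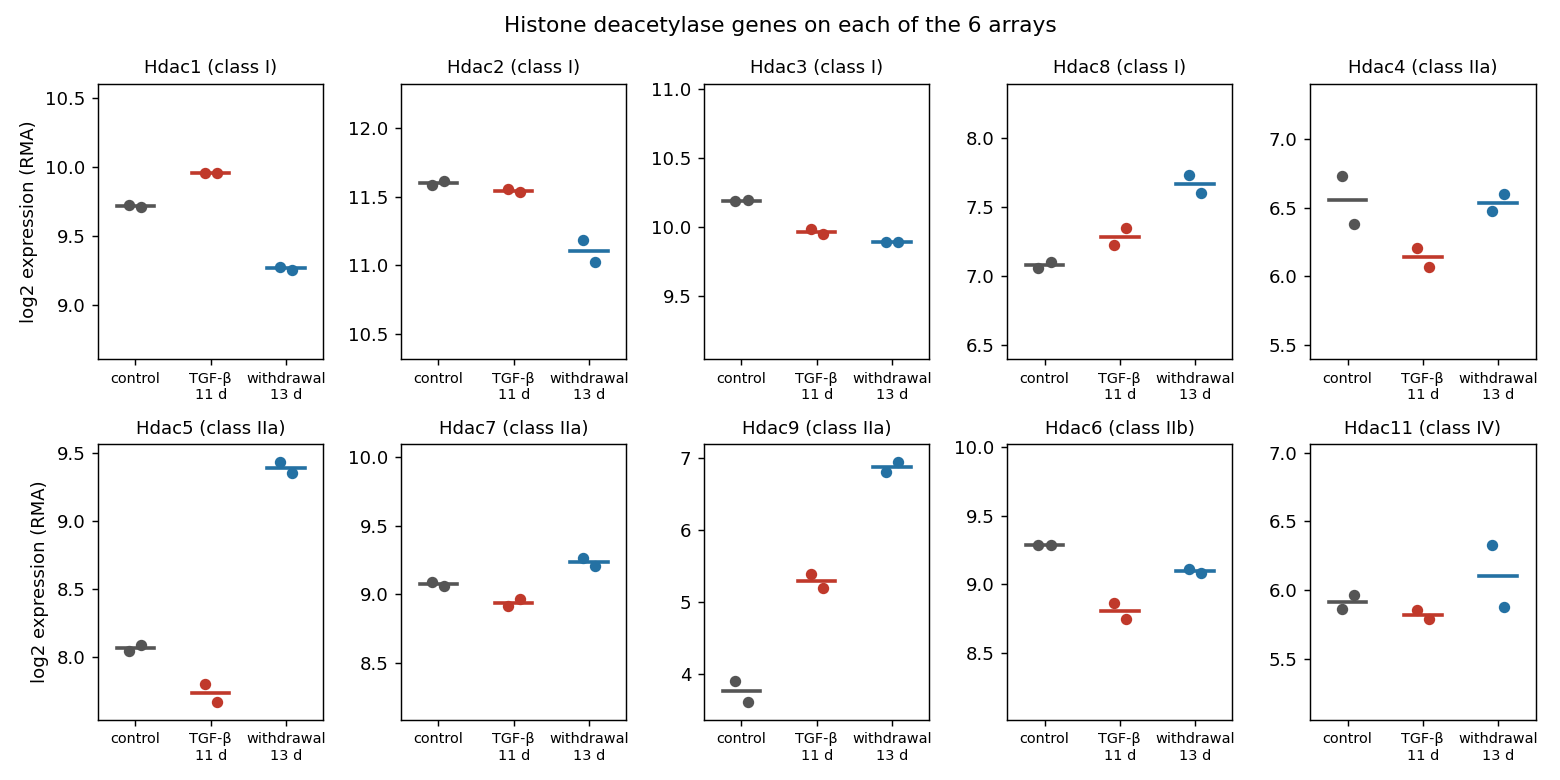
Log2 expression (RMA, vertical axis) of the 10 deacetylase genes, with a point for each array, a bar at the mean of 2 arrays and groups on the horizontal axis; each panel spans 2 log2 units or more and has its own range. Hdac9 climbs from 3.90 and 3.62 in control to 6.81 and 6.95 on withdrawal, and Hdac5 is high on the withdrawal arrays alone, at 9.43 and 9.35.

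Of the class I genes, Hdac1 encodes the catalytic subunit that SIN3, NuRD and CoREST share with its close relative HDAC2. Hdac1 was at 9.73 and 9.71 in control, 9.96 and 9.96 under TGF-β and 9.28 and 9.26 on withdrawal. The 3 groups did not overlap, with the TGF-β arrays highest and the withdrawal arrays lowest. Its difference was 0.24 ± 0.048 (SE) under TGF-β (limma adjusted p = 0.0113), -0.69 on withdrawal against TGF-β (adjusted p = 9.56e-05) and -0.45 against control (adjusted p = 5.05e-04). The rise under TGF-β turned to -0.051 with poly-A scaling and to 0.065 with hybridization spikes, and was not called in either. It also lost its call when any 1 control or TGF-β array was left out, at adjusted p of 0.0546 to 0.0678. RefSeq lists a pseudogene, Hdac1-ps, and whether the probe set also reads it was not tested.

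Hdac2 was at 11.58 and 11.61 in control, 11.55 and 11.53 under TGF-β and 11.19 and 11.03 on withdrawal. Only the withdrawal arrays stood apart, below the other 4. The difference from control under TGF-β was -0.054 with a 95% interval of -0.22 to 0.11, and was not called. On withdrawal Hdac2 fell by 0.44 ± 0.067 (SE) against TGF-β (limma adjusted p = 0.00266) and was lower than control by a difference of -0.49 (adjusted p = 0.00152). With poly-A scaling the first of these was -0.28 and not called (adjusted p = 0.29). Another probe set of the gene gave -0.52 and -0.61 for the same comparisons, both called in a fit over 34945 probe sets (adjusted p = 0.00113 and 5.44e-04). The dimmest, at 4.76 to 5.13 on all arrays, was not called in any comparison.

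Hdac3, the catalytic subunit of the NCoR complex, was at 10.18 and 10.19 in control, 9.98 and 9.94 under TGF-β and 9.89 and 9.89 on withdrawal. Both treated groups lay below control. It fell by 0.22 ± 0.049 (SE) under TGF-β (limma adjusted p = 0.0161) and was at -0.30 against control after withdrawal (adjusted p = 0.00331). Withdrawal against TGF-β gave -0.077, with a 95% interval of -0.20 to 0.043, and 0.080 with poly-A scaling. The change under TGF-β was not called without any 1 control or TGF-β array (adjusted p of 0.0514 to 0.0861), nor that against control with poly-A scaling, at -0.44 (adjusted p = 0.0514). Withdrawal against TGF-β was called with hybridization spikes, at -0.28 (adjusted p = 0.0468).

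Hdac8 encodes the class I enzyme that works outside these complexes and deacetylates the cohesin subunit SMC3. It was at 7.06 and 7.10 in control, 7.23 and 7.35 under TGF-β and 7.74 and 7.60 on withdrawal. The groups did not overlap, and the withdrawal arrays were highest, opposite to Hdac1 and Hdac2. The difference under TGF-β was 0.21 ± 0.071 (SE), or -0.086 with poly-A scaling, and did not pass limma (adjusted p = 0.0787). It rose by 0.38 on withdrawal (adjusted p = 0.00626) and was 0.59 above control (adjusted p = 9.22e-04). With hybridization spikes these last differences were 0.18 and 0.21 and not called (adjusted p = 0.202 and 0.11).

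All 4 class IIa genes rose on withdrawal against TGF-β, and Hdac5 and Hdac9 among them had the largest differences of the 10 members there. Their differences there were 0.40 for Hdac4, 1.66 for Hdac5, 0.29 for Hdac7 and 1.58 for Hdac9, with a median of 0.99 against -0.033 for all genes. All 4 stayed above 0 with either set of spikes, where 4 were called with poly-A and 2, Hdac5 and Hdac9, with hybridization spikes. These rises are those of the probe sets used. Other probe sets of Hdac9 and Hdac4 were at -0.17 and -0.18 and not called. A second of Hdac4 was at 0.25, not called, and a second of Hdac7 at 0.53, called. Class I had 1 higher and 2 lower of 4 in the same comparison, with a median of -0.26. The difference between the classes was not tested.

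Hdac9, which also gives rise to a short form without the catalytic domain, was at 3.90 and 3.62 in control, 5.39 and 5.20 under TGF-β and 6.81 and 6.95 on withdrawal. The 3 groups did not overlap, and it was the only member called higher at both steps. It rose by 1.54 ± 0.12 (SE) under TGF-β (limma adjusted p = 2.45e-04) and by a further 1.58 on withdrawal (adjusted p = 1.34e-04). The total over control was 3.12 (adjusted p = 1.17e-05). The control values lay within or below the range of the leukocyte gene Ptprc, 3.79 to 4.05, and were not separated from background, so no fold over them is given. The other Hdac9 probe set, brighter in control and dimmer over all arrays, gave no call. It was at 4.53 and 4.34 in control, 4.37 and 4.60 under TGF-β and 4.46 and 4.17 on withdrawal, with differences of 0.049, -0.17 and -0.12, none called (adjusted p = 0.835, 0.369 and 0.525 over 34945 probe sets). Which transcripts each probe set reads was not tested.

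Hdac5 was at 8.04 and 8.08 in control, 7.80 and 7.67 under TGF-β and 9.43 and 9.35 on withdrawal. The groups did not overlap, the TGF-β arrays were lowest, and the withdrawal arrays were more than 1 log2 unit above both others. It fell by 0.33 ± 0.067 (SE) under TGF-β (limma adjusted p = 0.0125). It then rose by 1.66, or 3.16-fold (adjusted p = 1.55e-05), to 1.33 above control, or 2.52-fold (adjusted p = 2.69e-05). The fall was -0.35 and -0.31 without the first or second control array and -0.26 without the second TGF-β array, and was not called there (adjusted p = 0.052, 0.0745 and 0.0623). Hdac5 has 1 probe set here.

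Hdac4 was at 6.73 and 6.38 in control, 6.21 and 6.07 under TGF-β and 6.47 and 6.60 on withdrawal. The TGF-β arrays were lowest, and control and withdrawal overlapped. The difference under TGF-β was -0.42 ± 0.13 (SE) and just missed the threshold (limma adjusted p = 0.0502). It passed without the second control array, at -0.59 (adjusted p = 0.0148), and with either set of spikes, at -0.71 with poly-A and -0.59 with hybridization spikes. Hdac4 rose by 0.40 on withdrawal (adjusted p = 0.046), a call lost when any 1 TGF-β or withdrawal array was left out (adjusted p of 0.0742 to 0.184). Against control it was at -0.020, with a 95% interval of -0.33 to 0.29, but at -0.40 and called with hybridization spikes (adjusted p = 0.00241). A second probe set gave -0.41 under TGF-β and was called (adjusted p = 0.0167), and 0.25 on withdrawal and was not (adjusted p = 0.0712). The third gave -0.039 and -0.18 and was not called.

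Hdac7 was at 9.09 and 9.06 in control, 8.92 and 8.96 under TGF-β and 9.26 and 9.21 on withdrawal. The order of the groups was that of Hdac5, over a much smaller range. The difference under TGF-β was -0.13 ± 0.052 (SE) and did not pass limma (adjusted p = 0.109). Hdac7 rose by 0.29 on withdrawal (adjusted p = 0.00501), a call lost with hybridization spikes, at 0.093 (adjusted p = 0.521). It was 0.16 above control, at the edge of the threshold (adjusted p = 0.0499). That last value was 0.025 with poly-A and turned to -0.22 with hybridization spikes, not called in either, and lost its call without any 1 of the 6 arrays (adjusted p of 0.075 to 0.19). The other probe set gave 0.53 on withdrawal and 0.39 over control, both called (adjusted p = 9.22e-04 and 0.00322).

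**Figure D2:**
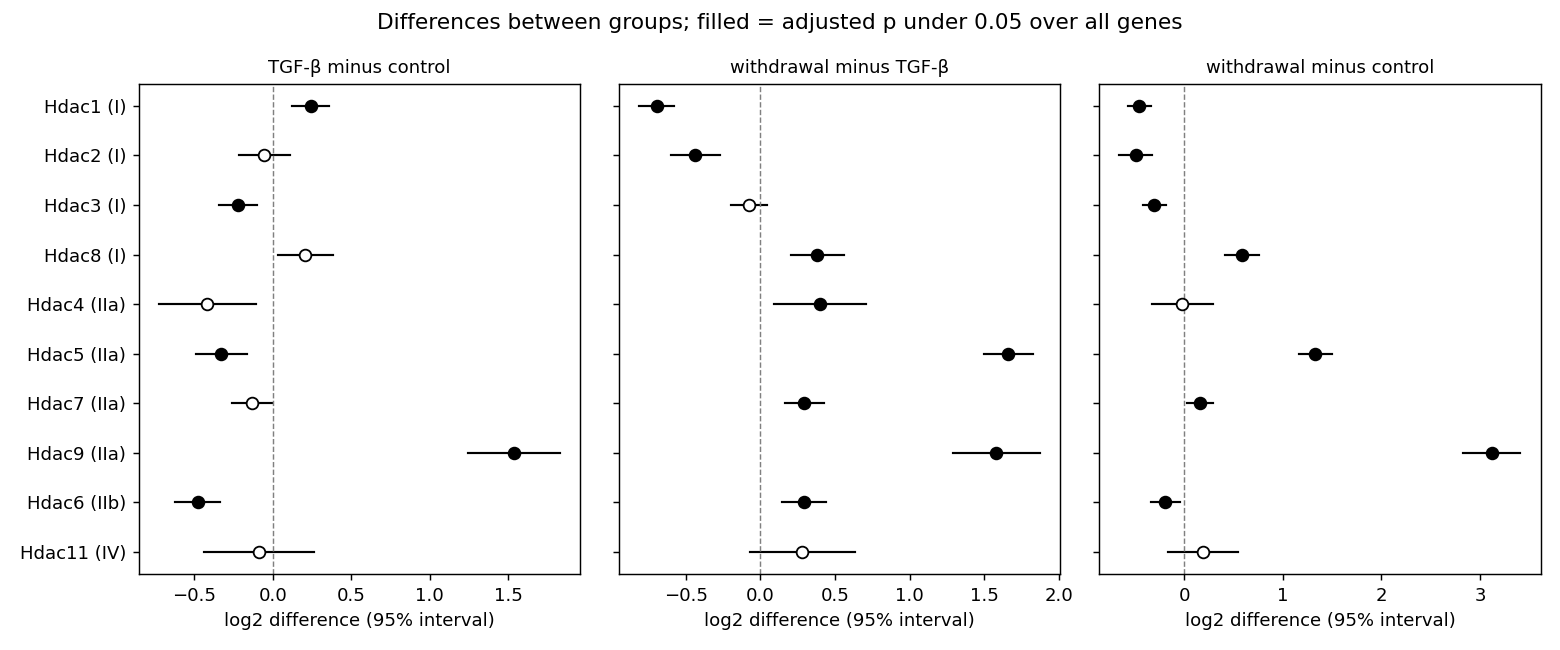
Log2 differences of the 10 genes (points) with 95% intervals from limma (lines), for the 3 comparisons, with class in brackets and filled points for an adjusted p under 0.05 over all 18193 genes; each panel has its own horizontal range. In the middle panel the 4 class IIa genes all lie above 0, at 0.29 to 1.66, and Hdac1 and Hdac2 lie below it at -0.69 and -0.44.

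Hdac6, the class IIb tubulin deacetylase, was at 9.29 and 9.28 in control, 8.87 and 8.75 under TGF-β and 9.11 and 9.08 on withdrawal. The TGF-β arrays were lowest, and the withdrawal arrays lay between them and control without overlap. It fell by 0.48 ± 0.059 (SE) under TGF-β, the largest fall among called members (limma adjusted p = 0.00165). It rose by 0.29 on withdrawal (adjusted p = 0.00892), to a difference of -0.19 from control (adjusted p = 0.044). The rise was 0.089 and not called with hybridization spikes (adjusted p = 0.539). The difference from control was -0.32 and not called with poly-A scaling (adjusted p = 0.17), and was not called when any 1 control or withdrawal array was left out (adjusted p of 0.0941 to 0.144).

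Hdac11 was at 5.86 and 5.96 in control, 5.86 and 5.79 under TGF-β and 6.33 and 5.88 on withdrawal. The first withdrawal array stood alone, and the other 5 lay between 5.79 and 5.96. It was the only member not called in any comparison, with differences of -0.088, 0.28 and 0.19 and limma adjusted p of 0.706, 0.173 and 0.331. The last was -0.19 with hybridization spikes, also not called. The 95% interval on withdrawal against TGF-β was -0.071 to 0.63. Without the second withdrawal array the differences on withdrawal were 0.50 and 0.42 and were called (adjusted p = 0.00715 and 0.0125). A dimmer probe set was at 5.19 and 5.01 in control, 5.17 and 5.02 under TGF-β and 5.76 and 5.84 on withdrawal. There the withdrawal arrays stood above the others, by 0.71 over TGF-β and 0.70 over control (adjusted p = 0.00112 and 0.00108 over 34945 probe sets). The mean of both probe sets gave 0.50 and 0.45, both called (adjusted p = 0.00254 and 0.00382).

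**Figure D3:**
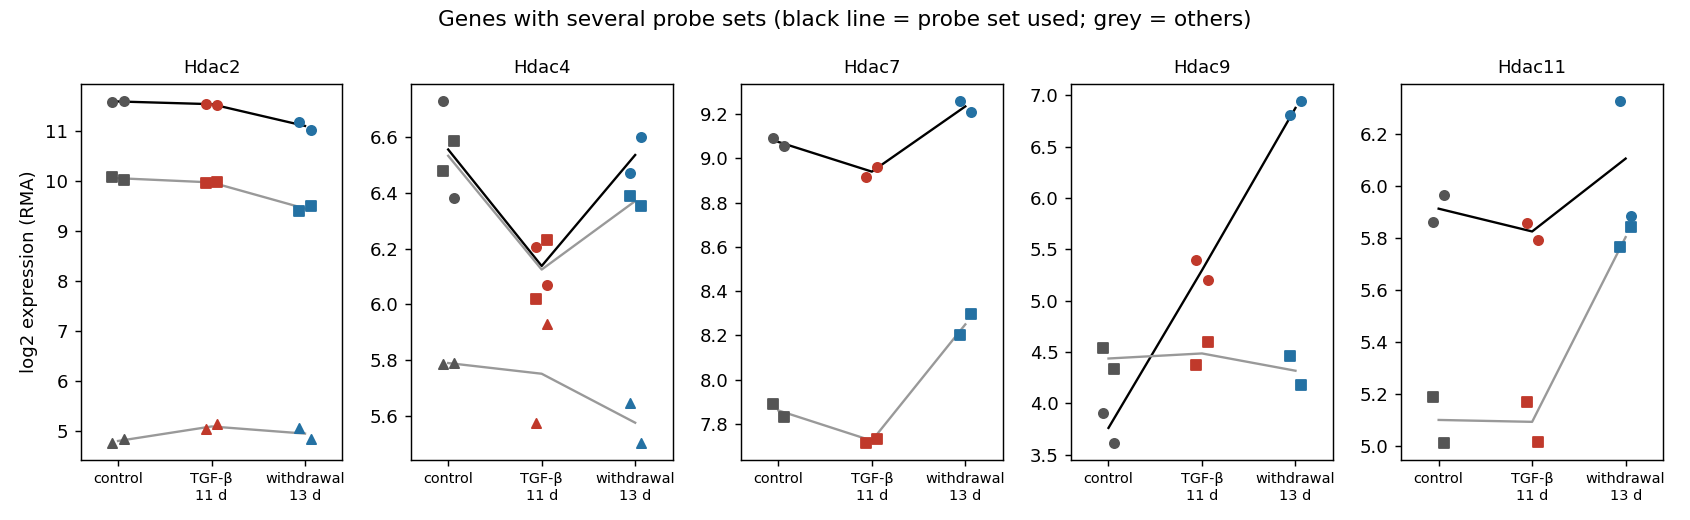
Log2 expression (RMA, vertical axis) for all probe sets of the 5 members that have several, with array values as points shaped by probe set and lines through group means; the black line is the probe set used and each panel has its own range. Hdac9 splits into a probe set that rises to 6.81 and 6.95 and another that stays at 4.53 and 4.34 in control and 4.46 and 4.17 on withdrawal. Both Hdac7 probe sets are highest on withdrawal, with a larger rise, 0.53 against 0.29, for the dimmer one.

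The partner proteins of these enzymes were counted from lists of known complexes and modifiers. Of 14 measured SIN3 complex genes, 2 rose and 5 fell under TGF-β, and 1 was higher and 8 lower on withdrawal than in control. Over all genes 15.0% rose and 17.5% fell under TGF-β, 21.8% and 22.1% on withdrawal against TGF-β, and 21.7% and 23.6% against control, so the 2 that rose are near the share of all genes. The median difference against control was -0.18, against -0.042 for all genes. Rbbp7, a histone-binding subunit shared with NuRD, was lower than control by a difference of -0.65 ± 0.048 (SE), and Ing1, which reads methylated histone H3, by one of -0.86 (limma adjusted p = 1.12e-04 and 9.57e-05). Of 10 NuRD genes, 1 was higher and 6 lower on withdrawal than in control, the latter including Cdk2ap1 at -0.93 and the remodelling ATPase gene Chd3 at -0.49. The 1 higher was Gatad2b, at 0.66, still called at 0.52 with poly-A and 0.28 with hybridization spikes. Poly-A scaling left 0 higher and 4 lower for SIN3 and 1 and 3 for NuRD, where 3441 of all 18193 genes were called lower. Hybridization spikes left 0 and 13, and 1 and 9, where 12948 of all 18193 genes were called lower.

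Of 8 CoREST genes, 3 rose and 1 fell under TGF-β, against 15.0% and 17.5% of all genes, so the 1 that fell is near that share. The scaffold gene Rcor2 at 0.56 and Zmym2 at 0.48 led the rises, but 0 rose and 1 fell with poly-A scaling. Rcor2 then fell by 0.50 on withdrawal (limma adjusted p = 0.0102), a call lost with poly-A scaling, at -0.35. Of the NCoR complex list, 3 genes were measured. Tbl1xr1, an NCoR subunit, was the only one of these called under TGF-β, at -0.72 (adjusted p = 1.82e-04), where 17.5% of all genes fell. It rose by 0.28 on withdrawal (adjusted p = 0.00589), a call lost with both sets of spikes, and was still at -0.44 against control (adjusted p = 8.1e-04). The 4 Smad corepressor genes, whose products bring deacetylases to Smad proteins, all rose under TGF-β, where 15.0% of all genes did. Their median was 0.60 against -0.011 for all genes. With poly-A scaling 1 of them was called and with hybridization spikes 3, all higher. On withdrawal Skil and Tgif1 fell by 0.68 and 0.36, while Tgif2 and Ski were still 0.82 and 0.62 above control (adjusted p = 1.29e-04 and 2.81e-04). The call of Tgif1 was lost with poly-A scaling, at -0.20, and that of Ski against control with hybridization spikes, at 0.24, where 1 gene was higher and 2 lower.

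Of 4 genes for the MEF2 factors that class IIa enzymes bind, 0 were called under TGF-β. Mef2a alone rose on withdrawal against TGF-β, by 0.29 (limma adjusted p = 0.0161), and Mef2d alone was above control, by 0.33 (adjusted p = 0.00956). In each case 1 of 4 is near the 21.8% and 21.7% of all genes called higher. With hybridization spikes Mef2a was at 0.092 and Mef2d at -0.050, and with poly-A scaling Mef2d was at 0.19, none of these called. Of 14 kinases known to phosphorylate class IIa enzymes, 3 rose and 4 fell under TGF-β, 9 rose and 1 fell on withdrawal, and 7 were higher and 0 lower on withdrawal than in control. Over all genes the shares were 15.0% and 17.5%, 21.8% and 22.1%, and 21.7% and 23.6%. The median on withdrawal against TGF-β was 0.39, against -0.033 for all genes. With poly-A scaling 9 rose and 0 fell there, and with hybridization spikes 6 and 2. Against control, hybridization spikes left 3 higher and 2 lower and turned the median from 0.24 to -0.14. The protein kinase D gene Prkd1 was at 5.13 and 5.80 on control arrays, 7.78 and 7.81 on TGF-β arrays and 7.71 and 7.71 on withdrawal arrays. The salt-inducible kinase gene Sik1 fell by 1.33 under TGF-β and rose by 1.56 on withdrawal. Sik3 rose by 1.37 there and was 0.97 above control (adjusted p = 1.18e-05 and 2.89e-05). Of 7 genes for 14-3-3 proteins, 0 were higher and 4 lower on withdrawal than in control, against 21.7% and 23.6% of all genes. Ywhah was at -0.88 and Ywhae at -0.54. With poly-A and hybridization spikes 2 and 7 were lower, where 3441 and 12948 of all 18193 genes were called lower.

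Of 7 measured HDAC6 substrate and partner genes, 3 rose and 1 fell under TGF-β, against 15.0% and 17.5% of all genes, so the 1 that fell is near that share. With poly-A scaling 0 rose and 1 fell. Atat1, the acetyltransferase that acts on tubulin against HDAC6, rose by 0.60 ± 0.071 (SE) while Hdac6 fell, and was 0.81 above control on withdrawal (limma adjusted p = 0.0014 and 2.32e-04). The tubulin gene Tuba1a rose by 0.49 under TGF-β and then fell by 1.07. Tuba1b and Tuba1c were not measured here, and whether the Tuba1a probe set also reads them was not tested. The rises of Atat1 and Tuba1a under TGF-β were 0.31 and 0.19 with poly-A scaling and not called. Sqstm1, an autophagy receptor gene, was 1.17 above control on withdrawal and Hsp90aa1, a chaperone gene, at -0.62. Of 11 cohesin genes, 0 rose and 5 fell under TGF-β, against 15.0% and 17.5% of all genes. On withdrawal 3 were higher and 6 lower than in control, against 21.7% and 23.6% of all genes. Poly-A scaling left 0 and 5 there, and hybridization spikes 0 and 7, where 3441 and 12948 of all 18193 genes were called lower. The 3 higher are near the 21.7% of all genes. Smc3, whose product HDAC8 deacetylates, was at 10.44 and 10.41 on control arrays, 9.85 and 9.82 on TGF-β arrays and 9.48 and 9.48 on withdrawal arrays. It fell at both steps, by 0.59 and 0.35 (adjusted p = 3.3e-04 and 0.00181). The second fall was -0.20 with poly-A scaling and not called.

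Other acetylation enzymes moved in both directions. Of 13 histone acetyltransferase genes, 2 rose and 7 fell under TGF-β, including Ep300, the p300 coactivator, at -0.45, and with poly-A scaling 0 rose and 8 fell. The 2 that rose are near the 15.0% of all genes. On withdrawal against TGF-β 5 rose and 2 fell, against 21.8% and 22.1% of all genes. Kat2b, known as PCAF, rose by 1.13 ± 0.050 (SE) and Kat6b by 0.98, while Hat1, which acetylates newly made histones, fell by 1.08 (limma adjusted p = 2.05e-05, 1.65e-04 and 6.78e-05). Hat1 was at -1.48 against control. Of 7 sirtuin genes, which encode the NAD-dependent deacetylases, 0 rose and 3 fell under TGF-β, against 15.0% and 17.5% of all genes. Sirt5, a mitochondrial enzyme, fell by 0.48 and then rose by 0.95, and Sirt2, another tubulin deacetylase, fell by 0.20 and then rose by 0.95, so that both ended above control, at 0.48 and 0.75 (adjusted p = 4.42e-04 and 1.42e-04). With poly-A and hybridization spikes Sirt5 was at 0.34 and 0.098 against control and not called. Sirt1 fell at both steps, by 0.20 and 0.25, the second call lost with poly-A scaling, at -0.091.

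**Figure D4:**
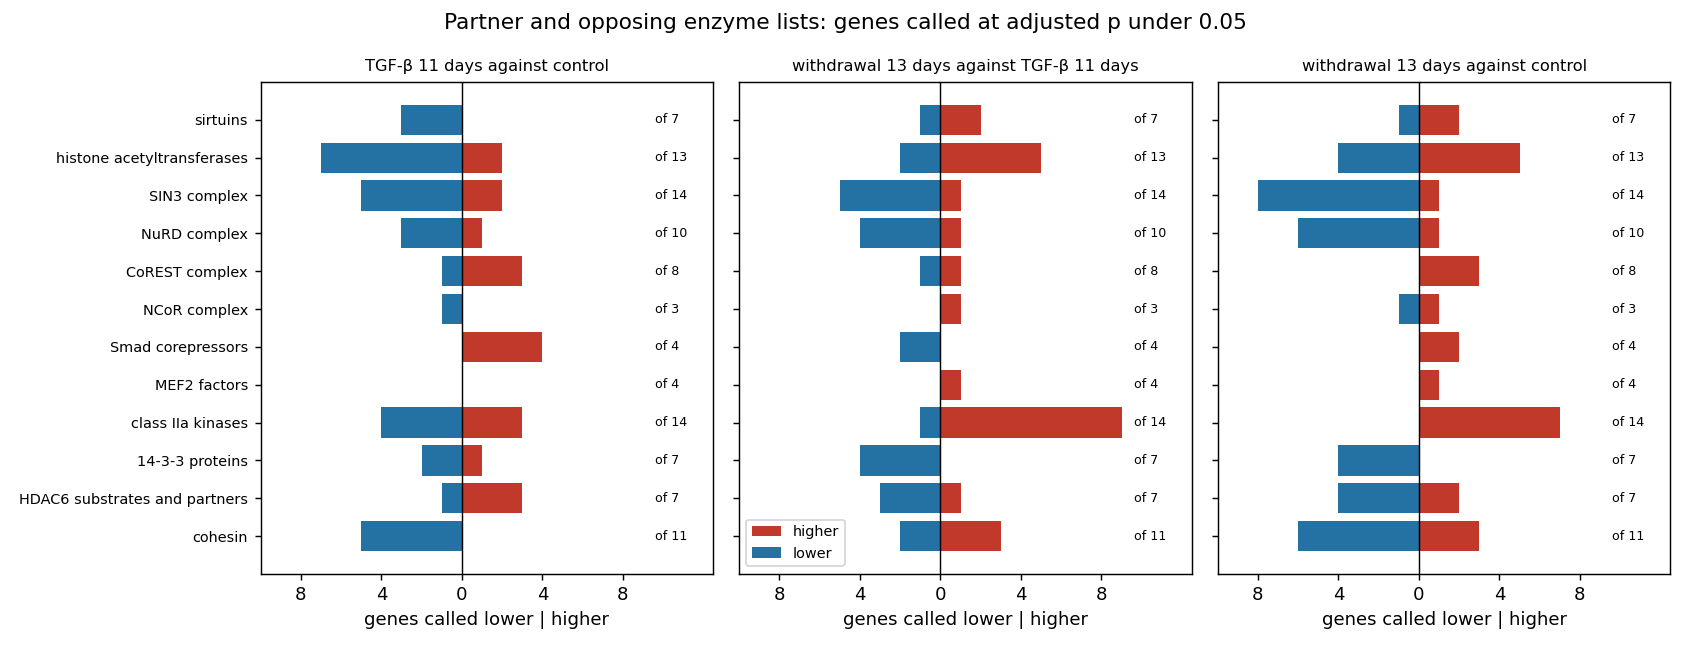
Number of genes per list called higher (red, to the right) or lower (blue, to the left) at a limma adjusted p under 0.05, for the 3 comparisons, with the number measured at the right of each row. The kinases of class IIa enzymes have 9 higher and 1 lower on withdrawal against TGF-β, and the SIN3 list has 1 higher and 8 lower against control.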

How the data were processed

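RNA labelled with an Affymetrix kit was read on 6 arrays, per the labels' protocols. The authors deposited log2 values for each probe set, and per the submitters' processing notes RMA produced them. Its software and version were not given in the sources used here. RMA removes shifts shared by all genes. No detection calls were used, so low values are not separated from background. Of 45101 probe sets, 64 controls were left out, and 34945 had 1 gene symbol in the platform annotation, 932 several and 9160 none. Names of 34741 probe sets matched a gene number of RefSeq GRCm38.p6, and 0 symbols needed updating. No filter on low values was applied. One limma 3.58.1 model (R 4.3.3) was fitted to all 6 arrays without covariates, then eBayes (2.86 prior and 3 residual degrees of freedom), Benjamini-Hochberg adjustment over 18193 genes and a two-sided threshold of 0.05. The median standard error was 0.070. The number of arrays limits precision. The fit was tested on simulated data. Spike scaling used 12 poly-A and 9 hybridization probe sets. It adds the spike gaps within a group to all genes together, which the fit treats as independent between genes, so its p-values are approximate. On the poly-A spikes the 2 control arrays stood at 0.017 and -0.30 about the mean of all arrays. With poly-A scaling the standard error of Hdac1 was 0.18, against 0.048 without it. A call can therefore be lost though the difference grows, as for Hdac6 against control, from -0.19 to -0.32. From other lists, the named genes are up to the 3 largest called changes per list and comparison, and Ptprc is named as a check of other cells. The members, lists and motifs were chosen with earlier results of these data known. Tables and figures were made with Python 3.11.15, pandas 2.3.3 and matplotlib 3.10.9.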

Additional observations from a re-analysis of the deposited data

How the results depend on the processing

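Under TGF-β, 5 of 10 deacetylase genes were called, against 32.4% of all genes. Some of these calls, and calls over all genes, were lost when 1 control or TGF-β array was left out. On withdrawal 8 were called in each comparison, and some of these calls were also lost when 1 array was left out, as were calls over all genes. With poly-A scaling, 5 of 10 were called against control, where 29.5% of all genes were, and with hybridization spikes 5 against TGF-β, where 56% were. Over all genes, 8235 calls against control went to 5358 and 14660 with poly-A and hybridization spikes, and 7983 on withdrawal against TGF-β to 4833 with poly-A. Of 441 member results under other settings, 371 kept their side of the threshold with no call turned, 45 lost the call, 21 gained it and 4 called values turned sign. Part of these results could not move. For the 5 members with 1 probe set, settings that choose or average probe sets keep the same difference. Leaving out an array of the group not compared repeats the fit of the 2 groups alone. The tally is therefore no measure of robustness. The sign turned for Hdac1 under TGF-β with poly-A scaling (-0.051), for Hdac7 against control with hybridization spikes (-0.22), and for Hdac9 with its second-brightest probe set, against control (-0.12) and against TGF-β (-0.17). The cause was not tested. Same-numbered arrays of different groups deviated from their group means with correlations of -0.016 to 0.0067, so the numbers give no pairing. With the replicate number as a block, 5, 7 and 6 members were called under TGF-β, on withdrawal against TGF-β and against control. Of all genes 30.3%, 42.3% and 43.5% were called in these fits. Hdac4 on withdrawal, and Hdac6 and Hdac7 against control, lost their calls (limma adjusted p = 0.0541, 0.0551 and 0.0788), and no other member's call changed. Leaving out the dimmest 40% of genes removed Hdac9 and Hdac11, and leaving out probe sets ending in x, s or a removed Hdac3. Values near the dim end, those of Hdac9 in control and of Hdac11, are the least certain.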

Other observations

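The remaining gene of the family, Hdac10, a class IIb relative of Hdac6 known as a polyamine deacetylase, was looked at after its values were seen. It was at 7.53 and 7.62 in control, 7.60 and 7.71 under TGF-β and 7.93 and 7.94 on withdrawal. The withdrawal arrays lay above the other 4, by 0.28 over TGF-β and 0.35 over control (limma adjusted p = 0.0143 and 0.00498). These differences were not looked at with spike scaling. Hybridization spikes moved the median of all genes to -0.23 on withdrawal against TGF-β and -0.42 against control. A dimmer Hdac10 probe set gave -0.016 and -0.061 for the same comparisons and was not called. The course of the brighter Hdac10 probe set differed from that of Hdac6, which was lowest under TGF-β. The difference between these genes was not tested.

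Genes nearest to Hdac9 and Hdac6 were found by the distance between their 2 log2 differences, TGF-β against control and withdrawal against TGF-β, over 3 groups of 2 arrays. Nearest to Hdac9 were Gprin3 at a distance of 0.14, the cytochrome P450 gene Cyp1b1 at 0.16 and the integrin gene Itgb5 at 0.24. Cyp1b1 was 1.69 higher under TGF-β and a further 1.64 higher on withdrawal (adjusted p = 9.24e-06 and 9.17e-06). Nearest to Hdac6 were Fbp2, Gdap10 and the deubiquitinase gene Usp10, at 0.006, 0.023 and 0.027. Fbp2 and Gdap10 were called under TGF-β but not on withdrawal against TGF-β (limma adjusted p = 0.117 and 0.0949). Usp10 fell by 0.49 under TGF-β and rose by 0.32 on withdrawal (adjusted p = 8.89e-04 and 0.00362). The nearness is a description and shows no shared control.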
